A study of Mus musculus with 8 samples.

Results

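Dnase1l3, Nav2, Ubd and Maob had more signal in spleen than in lymph node, and Tceal1, Olfm1, Trib2, Calm4, Lrrc1 and Net1 had more in lymph node, on 8 arrays from Aire-wild-type and Aire-knockout mice. These 10 genes, of 18193 with a probe set of their own, were chosen by their p-values for spleen against lymph node, which were among the smallest on these same arrays. Their tissue differences are therefore described here and not tested. The study concerned extrathymic cells that express Aire, the autoimmune regulator. There were 4 groups of 2 arrays, lettered A and B, from Aire-wild-type spleen, Aire-knockout spleen, Aire-wild-type lymph node and Aire-knockout lymph node. The labels give tissue, genotype and letter, and neither an age, a sex, a strain, a cell type nor a sorting step, so "spleen" and "lymph node" name where a sample came from and not which of its cells were taken. Nothing in them says whether the arrays of a group came from separate animals. The p-values below therefore measure the spread between these arrays alone, some of which may be technical. Arrays A and B of each group had unlike sex-linked signals, as given below, which repeats of the same RNA would not.

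Spleen and lymph node are both meeting places of lymphocytes and dendritic cells. The spleen samples blood through its red pulp and marginal zone, whereas a lymph node samples lymph and receives dendritic cells that migrate from the surrounding tissue. Aire acts in the thymus, where it lets medullary epithelial cells display proteins of other tissues, and cells with Aire are also found in spleen and lymph node. The genes described here belong to no common pathway. They include a secreted nuclease, a ubiquitin-like modifier, an amine-degrading enzyme, a calcium-binding protein, a pseudokinase and regulators of the cytoskeleton and of cell polarity.

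Signals are the brightness of a probe set in arbitrary units after each array was shifted to a common median of 59.0. Before that shift the array medians ranged from 53.8 to 65.3. A floor of 9.58 was set for the calculations, since values under it have no order. Differences are on the log2 scale, with the standard error (SE) from the fit to all 8 arrays, 4 per tissue. In bulk samples such as these, fewer cells of a type and less RNA per cell cannot be told apart. Aire had signals of 3052 to 5204 on the 4 wild-type arrays and of 791 to 2376 on the 4 knockout arrays, which did not overlap. Sex-linked transcripts differed between the letters and between the genotypes. Xist, from the inactive X chromosome, had 3565 to 7624 on the wild-type arrays, 5527 and 6355 on the knockout A arrays and 14.6 and 23.1 on the knockout B arrays. The Y-linked Eif2s3y had 21.2 and 3.80 on the wild-type A arrays, 1749 and 1692 on the wild-type B arrays and 521 to 1988 on the knockout arrays. These signals thus move with genotype, and each knockout value below carries that difference. Mature dendritic cell genes were bright on all 8 arrays, with Ccr7 at 8241 to 14752 and Fscn1 at 9491 to 12476. Of 4 spleen stromal genes on the array, which include the spleen organizer Tlx1, 0 were bright enough to be tested in either tissue.

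Among the 11557 genes tested, the 10 genes held places 1 to 6, 9 and 16 to 18 in the order of p for spleen against lymph node. By the size of the difference they ranged from place 7 for Maob to place 237 for Dnase1l3, which is within the largest 2.05%. The median absolute difference was 2.41 for the 10 genes and 0.29 for all genes tested, which the choice favoured. Several were thus chosen for a small spread between arrays of a group as well as for a large difference. The residual standard deviation (SD) within groups had a median of 0.31 for the 10 genes and of 0.45 for all genes tested, and 7 of the 10 lay under the latter. It was smallest for Trib2, at 0.08, and Tceal1, at 0.10, and largest for Maob, at 0.93. For Trib2 and Tceal1 both wild-type spleen arrays were set to the floor, which makes the spread of that group 0 and lowers the SD. Without the floor the SE of the tissue difference was 0.29 in place of 0.20 for Tceal1. For Trib2 it was 0.21 in place of 0.20. The difference itself was then -3.13 in place of -2.56 for Tceal1 and -2.42 in place of -1.80 for Trib2. The floor thus lowered both the SE and the size of the difference. Genes close to them in p but not among the 10 were Prdm8 at place 7 with a difference of -1.73, Cpq at place 8 with -1.96 and Slc16a9 at place 10 with 1.92. The last of the 10 was Maob at place 18, and Plat followed at place 19 with -3.28. In all 10 genes the 4 spleen arrays did not overlap the 4 lymph node arrays, which was so for 5.72% of all genes tested and was what the choice favoured. By the adjusted p-value 0% of the 11557 genes passed in this comparison, and the lowest adjusted p in limma was 0.0575, for Tceal1 itself.

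**Figure D1:**
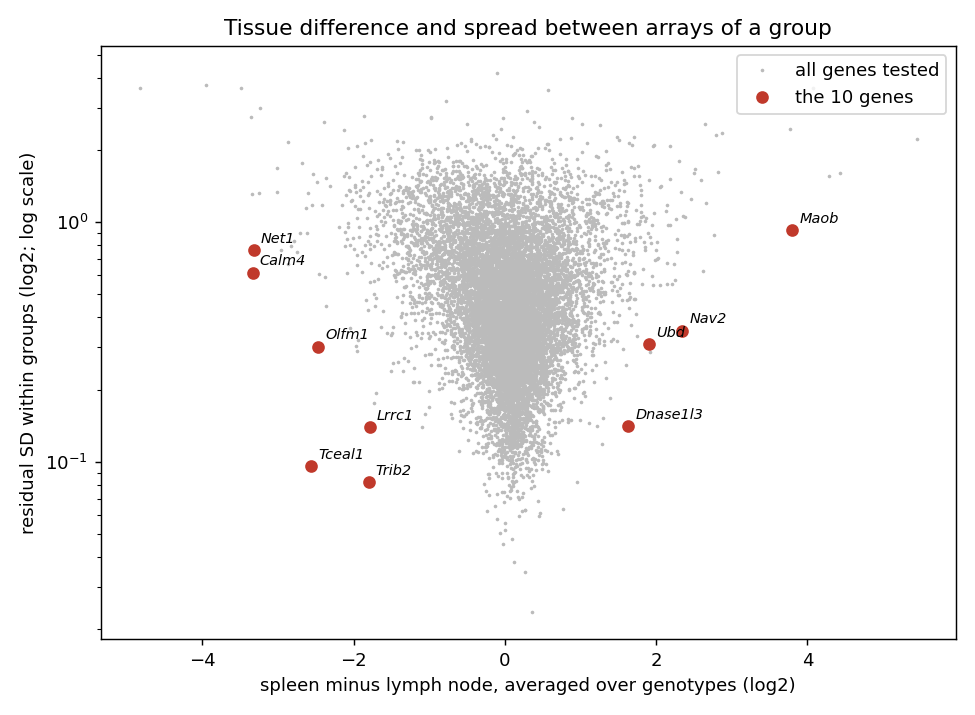
Each point is a gene, with its difference between spleen and lymph node on the x axis (log2) and its residual SD within groups on the y axis (log2 units, log scale), and red points are the 10 genes. Trib2, Tceal1, Lrrc1 and Dnase1l3 sit low in the plot with an SD of 0.14 or less, while Maob, with an SD of 0.93, stands out by a difference of 3.80.

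Dnase1l3 encodes a secreted endonuclease of dendritic cells and macrophages that cuts DNA in chromatin and cell debris, and its loss leads to lupus-like disease. Its signals were 5777 and 6394 on the wild-type spleen arrays, 3969 and 4533 on the knockout spleen arrays, 1781 and 2184 on the wild-type lymph node arrays and 1312 and 1427 on the knockout lymph node arrays. Every spleen array was above every lymph node array, and within each tissue both wild-type arrays were above both knockout arrays. The spleen mean was 5168 ± 1113 (SD, n = 4) and the lymph node mean 1676 ± 393 (SD, n = 4). The difference was 1.63 ± 0.21 (SE), or 3.09-fold.

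Ubd, also called FAT10, encodes a ubiquitin-like modifier that marks proteins for the proteasome and is induced by interferon-gamma and tumour necrosis factor. It had signals of 315 and 488 in wild-type spleen, 492 and 448 in knockout spleen, 86.3 and 107 in wild-type lymph node and 164 and 115 in knockout lymph node. The lowest spleen array stood above the highest lymph node array, and the genotypes overlapped in spleen but not in lymph node. Its difference between tissues was 1.90 ± 0.26 (SE), or 3.73-fold.

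Maob encodes monoamine oxidase B, an enzyme of the outer mitochondrial membrane that breaks down dopamine and other amines. The wild-type spleen arrays read 630 and 408 and the knockout spleen arrays 191 and 336, against 23.8 and 41.2 in wild-type lymph node and 9.31 and 46.5 in knockout lymph node. All 4 spleen signals exceeded all 4 lymph node signals by a wide margin, while the lymph node arrays of 1 genotype differed among themselves, with knockout array A under the floor. The difference of 3.80 ± 0.53 (SE), or 13.9-fold, was the largest of the 10 genes. In lymph node Maob lay under the common median signal on every array.

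Nav2 encodes neuron navigator 2, a large microtubule-associated protein known from neurite outgrowth. Its brightest probe set gave 1630 and 2697 in wild-type spleen, 965 and 1333 in knockout spleen, 377 and 383 in wild-type lymph node and 288 and 204 in knockout lymph node. The order of the groups was that of Dnase1l3, with knockout arrays under wild-type arrays in each tissue. The tissues differed by 2.35 ± 0.27 (SE), or 5.08-fold.

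**Figure D2:**
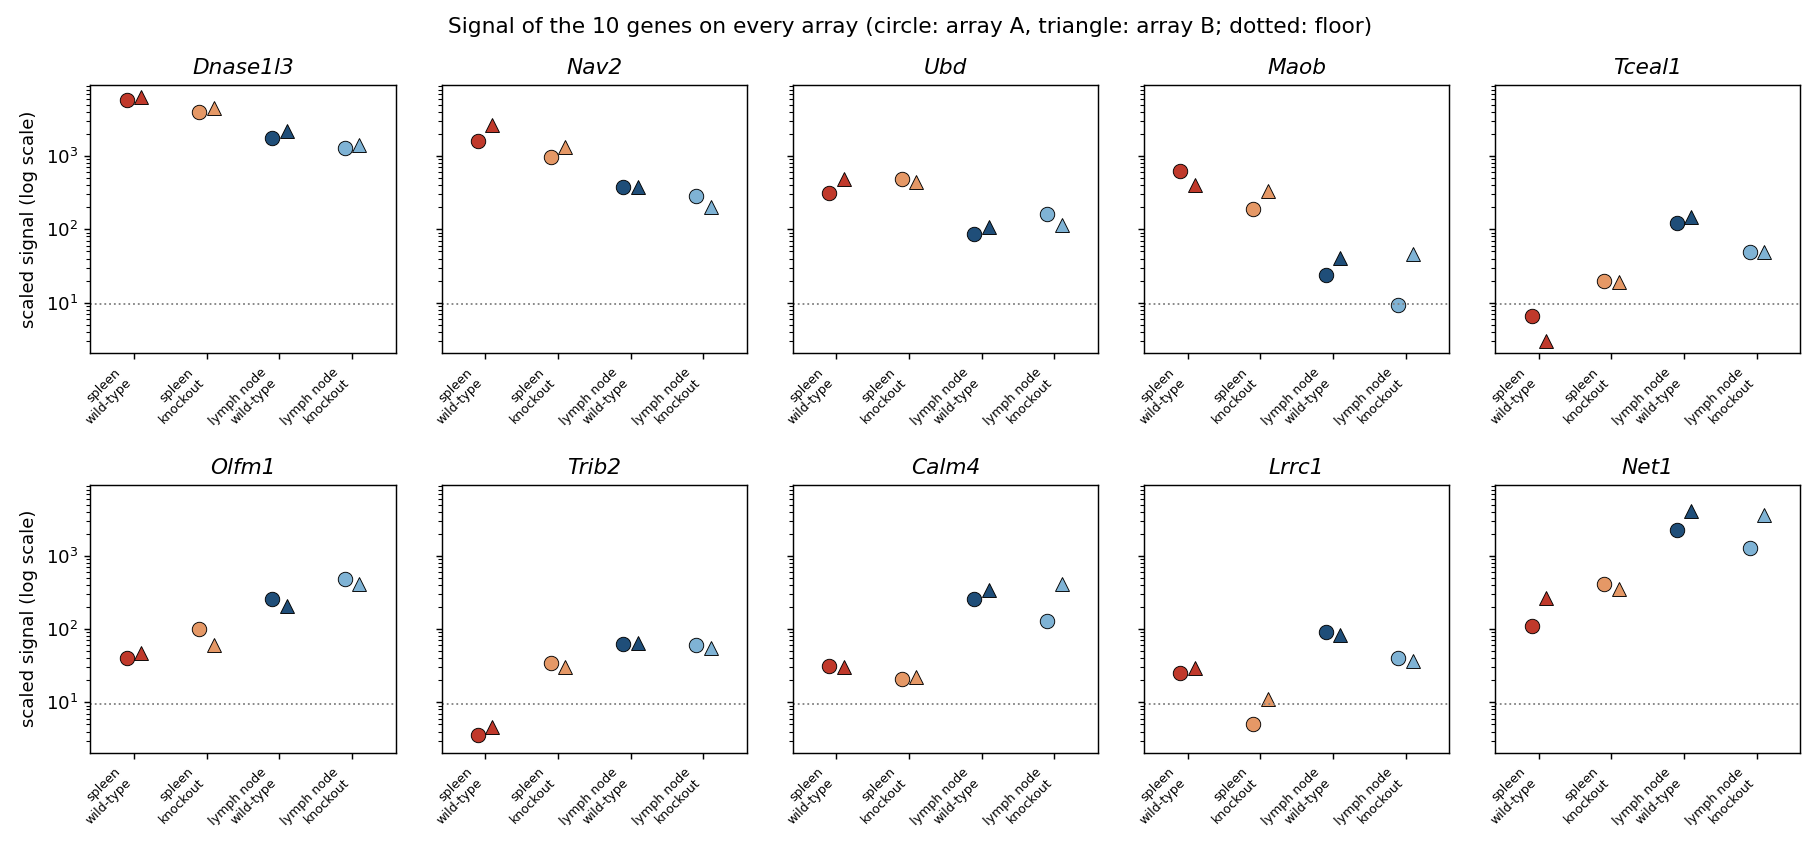
Scaled signal (log scale) of the 10 genes on every array, by tissue and genotype, with a circle for array A, a triangle for array B and a dotted line at the floor of 9.58. In each panel the spleen arrays on the left do not overlap the lymph node arrays on the right, and Tceal1 and Trib2 lie under the floor on both wild-type spleen arrays.

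Among the genes with more signal in lymph node, Net1 and Calm4 had the largest differences. Net1 encodes an exchange factor that activates the GTPases RhoA and RhoB and so acts on actin and cell shape. It had signals of 109 and 269 in wild-type spleen, 407 and 357 in knockout spleen, 2251 and 4113 in wild-type lymph node and 1282 and 3591 in knockout lymph node. The B arrays of lymph node were brighter than the A arrays in both genotypes, and even the dimmest lymph node array stood above the brightest spleen array. The tissues differed by -3.32 ± 0.46 (SE).

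Calm4 encodes a calmodulin-like calcium-binding protein known from epidermis. Its signals were 31.1 and 30.5 in wild-type spleen, 21.1 and 22.2 in knockout spleen, 257 and 340 in wild-type lymph node and 128 and 415 in knockout lymph node. The spleen arrays were dim and close to each other, and the knockout lymph node arrays were the most spread, enclosing the wild-type ones. The difference was -3.34 ± 0.38 (SE), or 10.1-fold.

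Olfm1 encodes a secreted olfactomedin-domain glycoprotein of the nervous system. Its main probe set read 39.8 and 47.7 in wild-type spleen, 99.2 and 60.9 in knockout spleen, 259 and 205 in wild-type lymph node and 486 and 415 in knockout lymph node. In both tissues the knockout arrays were above the wild-type arrays without overlap. The difference between tissues was -2.47 ± 0.26 (SE), or 5.53-fold.

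Lrrc1 encodes a leucine-rich repeat protein of the LAP family, which includes the polarity protein Scribble. It had 25.1 and 29.1 in wild-type spleen, 5.01 and 11.3 in knockout spleen, 91.9 and 82.3 in wild-type lymph node and 40.7 and 36.3 in knockout lymph node. Arrays of a group lay close together except in knockout spleen, all 4 groups were apart, and knockout was under wild-type in both tissues. The tissues differed by -1.79 ± 0.21 (SE), or 3.45-fold, with knockout spleen array A under the floor. Raising that array to the floor narrowed the spread of its group and so lowered the SD of Lrrc1 too. Without the floor the tissue difference was -2.02.

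Tceal1 and Trib2 differed from the other genes in that both wild-type spleen arrays lay under the floor. Tceal1, an X-linked gene for a small nuclear protein of the transcription elongation factor A-like family, had 6.48 and 3.0 in wild-type spleen, 19.6 and 18.9 in knockout spleen, 121 and 146 in wild-type lymph node and 48.5 and 48.8 in knockout lymph node. Its averaged difference was -2.56 ± 0.20 (SE). In wild-type arrays it was at least 13.8-fold higher in lymph node, and in knockout arrays 2.53-fold. Trib2, a pseudokinase that brings the transcription factor C/EBP-alpha to the ubiquitin ligase COP1, had 3.63 and 4.61 in wild-type spleen, 34.0 and 30.2 in knockout spleen, 63.4 and 65.5 in wild-type lymph node and 61.2 and 55.0 in knockout lymph node. The 4 lymph node arrays of Trib2 were nearly level, and the spleen arrays were split by genotype. Its averaged difference was -1.80 ± 0.20 (SE), with lymph node at least 6.72-fold higher in wild-type arrays and 1.81-fold higher in knockout arrays. Trib2 was above the common median signal on 3 lymph node arrays and on no spleen array.

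All 10 genes passed the filter on low signals, which asked for more than the median signal of 59.0 on at least 2 arrays. Of these, 5 were above that level in both tissues. Another 4 (Tceal1, Trib2, Calm4 and Lrrc1) were above it in lymph node only, and 1 (Maob) in spleen only. Those 5 entered the test through the tissue in which they were high, so their passing carries no information on the difference. Tceal1 and Lrrc1 passed through the 2 wild-type lymph node arrays alone, which also favours a knockout value under the wild-type value in lymph node. Trib2 passed through both wild-type and 1 knockout lymph node array. At least 1 array was at the floor for 4 genes, namely Tceal1, Trib2, Lrrc1 and Maob.

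The regions around the start sites of 8 of the 10 genes were found in a RefSeq promoter table (build GRCm38.p6), with 12 windows of 300 bases that run from 250 before to 50 after the start. Dnase1l3 and Maob had no entry. Calm4 and Ubd are shown because their windows hold 0 CpG pairs, against 8 to 43 in the other 10 windows and a median of 7 in all 32851 windows. Tceal1 and Net1 are shown because their windows hold the letters CACGTG, the E-box bound by factors of the Myc and USF families. The Net1 window is that of its listed start site 2. Capitals mark CACGTG, and the other sequences have no capitals. Positions are chr13:3837507-3837806 on the plus strand for Calm4, chr17:37193642-37193941 on the plus strand for Ubd, chrX:136707732-136708031 on the plus strand for Tceal1 and chr13:3893532-3893831 on the minus strand for Net1.
Calm4: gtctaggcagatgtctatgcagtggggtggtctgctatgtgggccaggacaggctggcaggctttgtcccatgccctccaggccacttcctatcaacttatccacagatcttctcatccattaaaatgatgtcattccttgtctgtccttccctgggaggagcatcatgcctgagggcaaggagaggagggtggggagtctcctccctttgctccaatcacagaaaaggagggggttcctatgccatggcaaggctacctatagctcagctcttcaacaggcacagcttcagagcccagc
Ubd: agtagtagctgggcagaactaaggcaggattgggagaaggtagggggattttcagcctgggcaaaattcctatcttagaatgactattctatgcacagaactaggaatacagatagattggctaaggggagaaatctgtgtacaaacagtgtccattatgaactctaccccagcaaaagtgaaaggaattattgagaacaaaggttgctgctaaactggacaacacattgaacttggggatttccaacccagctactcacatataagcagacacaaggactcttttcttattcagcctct
Tceal1: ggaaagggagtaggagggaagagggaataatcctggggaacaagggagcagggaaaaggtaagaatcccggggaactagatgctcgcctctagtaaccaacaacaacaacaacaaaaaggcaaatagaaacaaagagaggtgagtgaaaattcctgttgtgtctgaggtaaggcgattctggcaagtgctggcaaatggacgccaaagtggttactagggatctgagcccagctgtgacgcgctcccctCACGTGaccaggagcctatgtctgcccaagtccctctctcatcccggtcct
Net1: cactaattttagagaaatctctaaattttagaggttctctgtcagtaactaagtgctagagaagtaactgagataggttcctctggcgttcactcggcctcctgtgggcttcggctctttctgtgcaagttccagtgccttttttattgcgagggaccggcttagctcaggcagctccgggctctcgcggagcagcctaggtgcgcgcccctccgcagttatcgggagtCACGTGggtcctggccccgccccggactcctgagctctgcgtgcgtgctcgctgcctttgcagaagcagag
The CACGTG begins at position -1 relative to the start site in Tceal1 and at -21 in Net1. It was found in 2 of the 12 windows of these genes and in 7.15% of all windows. Of the other motifs searched on both strands, TATAAA was in 1 of the 12 windows, at -235 of the listed start site 2 of Lrrc1, and in 13.6% of all windows. TGANTCA, TTCNNNGAA and CCGGAAG were in 0 of the 12 windows and in 7.81%, 8.30% and 8.86% of all windows. The motifs do not overlap each other in these windows. A match describes the letters in the window only, and the arrays do not say which start site was used. Calm4 and Net1 lie on chromosome 13 with 1 protein-coding gene, Calm5, between them.

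The tissue difference had the same direction in wild-type and knockout arrays for all 10 genes. For Dnase1l3 it was 1.62 in wild-type and 1.63 in knockout arrays, the closest match of the 10. Nav2 had 2.46 and 2.23, Ubd 2.03 and 1.77, and Maob 4.02 and 3.59. Among the genes brighter in lymph node, Olfm1 had -2.40 and -2.53, Calm4 -3.26 and -3.41, and Lrrc1 -1.69 and -1.89. The values of Net1 stood further apart, at -4.15 in wild-type and -2.49 in knockout arrays. Those of Tceal1 were -3.79 and -1.34 and those of Trib2 -2.75 and -0.86, where the wild-type value is set by the floor. The values of a gene in both genotypes are parts of the contrast that chose it, so their shared direction describes the choice.

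**Figure D3:**
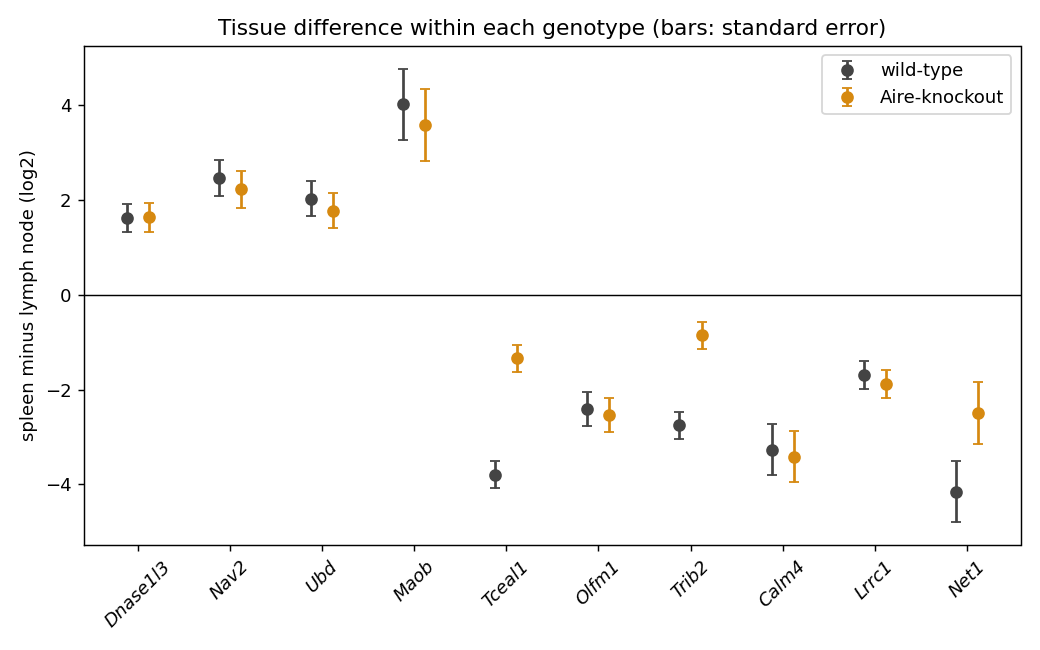
Difference between spleen and lymph node (log2) of each gene in wild-type arrays (grey) and in knockout arrays (orange), with bars of 1 SE from the fit to all 8 arrays. The 2 points of a gene lie on the same side of 0 for all 10 genes and are furthest apart for Tceal1 (-3.79 and -1.34), Trib2 (-2.75 and -0.86) and Net1 (-4.15 and -2.49).

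Whether the tissue difference itself depended on Aire was tested as the difference of the 2 tissue differences, knockout minus wild-type, a comparison that the choice of genes did not use. It still shares the residual spread that the choice made small. Tceal1 had 2.45 ± 0.41 (SE), with an unadjusted p of 0.000557 in limma. Trib2 had 1.89 ± 0.41 (SE), with an unadjusted p of 0.00234 in limma. Neither passed after adjustment over all genes, with an adjusted p of 0.999 in limma for both. Net1 had 1.66 ± 0.91 (SE), with an unadjusted p of 0.112, and the other 7 genes lay between -0.43 and 0.01. Thus 2 of 10 genes had an unadjusted p under 0.05, beside 3.42% of all genes tested. Both rest on wild-type spleen arrays under the floor, a group that then adds no spread to the SE, and Tceal1 was admitted by the wild-type lymph node arrays that drive its value. Without the floor the values were 3.58 for Tceal1 and 3.12 for Trib2, and with a floor at the 40th percentile they were 1.45 and 0.15. With a prior for the spread that is trended and robust, 0 of the 10 genes had an unadjusted p under 0.05.

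Averaged over the tissues, 0 of the 10 genes differed between knockout and wild-type at an adjusted p under 0.05, as was so in each tissue alone and for the difference of tissue differences, where 0% of all genes passed. At an unadjusted p under 0.05, 5 of 10 did so in limma, 3 lower and 2 higher in knockout, beside 8.00% of all genes tested. Lrrc1 had the smallest p, with a difference of -1.28 ± 0.21 (SE), or 2.42-fold lower in knockout arrays (unadjusted p = 0.000535, adjusted p = 0.203, limma). That value is favoured by the filter, which Lrrc1 passed through wild-type lymph node arrays alone, and was -0.59 with a floor at the 40th percentile. Nav2 had -0.77 ± 0.27 (SE; adjusted p = 0.550) and Dnase1l3 -0.52 ± 0.21 (SE; adjusted p = 0.608). Higher in knockout arrays were Olfm1, with 0.90 ± 0.26 (SE; adjusted p = 0.431), and Trib2, with 0.79 ± 0.20 (SE; adjusted p = 0.394). The value of Trib2 rests on wild-type spleen arrays under the floor and was -0.076 with a floor at the 40th percentile. Ubd, Maob, Tceal1, Calm4 and Net1 had differences between -0.79 and 0.39 with unadjusted p-values of 0.177 or more. The count of 5 fell to 3 without wild-type spleen array B, without knockout spleen array A or without either of the wild-type lymph node arrays. It was also 3 with the trended and robust prior. With the stricter filter it was 3, but there Lrrc1 and Trib2, which are among the 5, were not tested, nor was Tceal1. When the probe sets of a gene were averaged it was 2, and there Trib2 was not tested. The selected genes have small residual spreads, which lowers their p-values in every comparison from the same fit.

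The 2 tissues gave like values for some genes and unlike values for others. Knockout minus wild-type was -1.38 in spleen and -1.18 in lymph node for Lrrc1, -0.52 and -0.53 for Dnase1l3, -0.89 and -0.65 for Nav2, and 0.83 and 0.96 for Olfm1. For these 4 genes the knockout arrays were on the same side of the wild-type arrays in both tissues without overlap, 3 lower and 1 higher, which was so for 8.75% of all genes tested. Maob had -1.0 and -0.57, Calm4 -0.51 and -0.36, and Ubd 0.26 and 0.52, with overlapping arrays in at least 1 tissue. Signs differed for Tceal1, with 1.01 in spleen and -1.45 in lymph node, for Trib2, with 1.74 and -0.15, and for Net1, with 1.16 and -0.50. In lymph node the knockout arrays of Tceal1 lay under the wild-type arrays without overlap, which is the condition through which it passed the filter. With Y-linked signal as a covariate the averaged value of Net1 turned from 0.33 to -0.22.

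**Figure D4:**
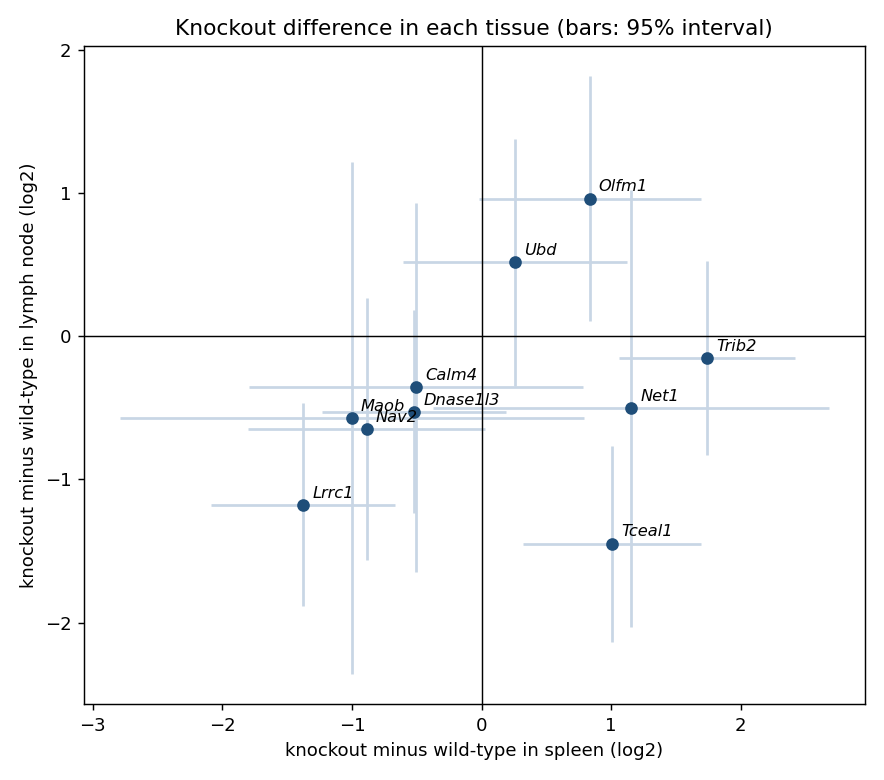
Knockout minus wild-type (log2) in spleen on the x axis and in lymph node on the y axis for each of the 10 genes, with bars of the 95% interval from the fit. Lrrc1 sits furthest to the lower left (-1.38 and -1.18), Olfm1 in the upper right (0.83 and 0.96), and Tceal1, Trib2 and Net1 in the lower right.

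Both X-linked genes, Maob and Tceal1, were read on arrays whose sex-linked transcripts differed. In knockout lymph node Xist was 6355 on array A and 23.1 on array B, where Tceal1 had 48.5 and 48.8 and Maob 9.31 and 46.5. In wild-type lymph node Eif2s3y was 3.80 on array A and 1692 on array B, and Tceal1 had 121 and 146. These are comparisons between letters, and the mix also differed between genotypes. With Y-linked signal as a covariate, knockout minus wild-type was -0.28 in place of -0.22 for Tceal1 and -1.08 in place of -0.79 for Maob.

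The 10 genes have 22 probe sets with a gene symbol of their own, of which 16 passed the filter and 6 did not. For 6 genes (Ubd, Maob, Tceal1, Calm4, Lrrc1 and Net1) there was 1 probe set, so nothing on the array repeats the reading. The other probe set of Dnase1l3 gave 4756 and 4999 in wild-type spleen, 2906 and 4264 in knockout spleen, 1215 and 1607 in wild-type lymph node and 1169 and 1267 in knockout lymph node. It matched the main one in the order of the tissues, with a difference of 1.67 beside 1.63, but its lymph node genotypes overlapped. Of the 8 probe sets of Nav2, 5 passed the filter, and all 5 were brighter in spleen and dimmer in knockout. Their tissue differences were 2.35, 2.26, 2.16, 1.84 and 0.60, and the last of these had overlapping tissues, with 105 to 279 in spleen and 82.2 to 191 in lymph node. The 3 dim probe sets of Nav2 had 0.44, 0.26 and 0.18.

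For Olfm1 the main probe set is of the kind whose probes can match other transcripts, as its suffix x_at tells. The other one that passed the filter gave 9.35 and 36.9 in wild-type spleen, 6.66 and 43.4 in knockout spleen, 64.3 and 98.5 in wild-type lymph node and 159 and 165 in knockout lymph node. It too separated the tissues without overlap, with -2.53, and placed knockout above wild-type in lymph node but not in spleen. The third probe set of Olfm1 was at the floor on 7 arrays. Of the 3 probe sets of Trib2, only the main one passed the filter, and the others had -0.23 and -0.24 at signals of 0.963 to 40.9. Since the probe sets of a gene were measured on the same arrays, they repeat the hybridisation and not the sample.

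**Figure D5:**
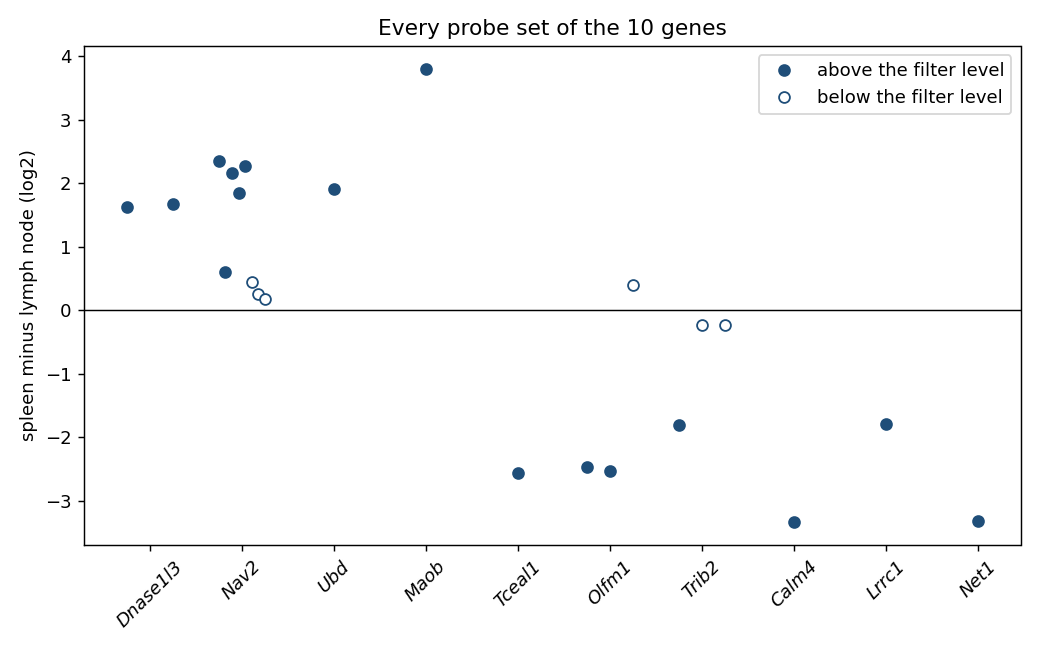
Difference between spleen and lymph node (log2) for every one of the 22 probe sets, by gene, with filled points above the filter level and open points below it. Filled points of a gene share a direction, from 0.60 to 2.35 for Nav2, while the 6 open points lie between -0.24 and 0.44.

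Relatives and partners of the 10 genes were read in the same comparison, which did not choose them. Of 97 such genes, 83 were on the array under a symbol of their own, 62 were tested, 21 did not pass the filter and 14 were not analysed here. None of the 62 passed the adjusted threshold in limma, and 10 of them, 16.1%, had an unadjusted p under 0.05, 5 higher in each tissue, beside 10.7% of all genes tested. That count was 5 without wild-type spleen array A or knockout spleen array B, and 6 without either wild-type lymph node array or knockout lymph node array A. Their median difference was -0.06, beside 0.06 for all genes tested.

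Of the other navigators, Nav3 was at the floor on 7 arrays and was not tested, and Nav1 ran the other way from Nav2. Nav1, another navigator, had 88.2 and 132 in wild-type spleen, 254 and 166 in knockout spleen, 419 and 429 in wild-type lymph node and 491 and 362 in knockout lymph node. It was higher in every lymph node array than in any spleen array, with -1.50 ± 0.27 (SE; adjusted p = 0.187 in limma), opposite in sign to Nav2. Mapre3, which encodes a microtubule end-binding protein, had 0.75. Olfm4, another olfactomedin protein, likewise had the opposite sign to Olfm1, with 185 and 388 in wild-type spleen, 371 and 202 in knockout spleen, 103 and 82.2 in wild-type lymph node and 32.2 and 81.8 in knockout lymph node. The difference of Olfm4 was 1.98 ± 0.42 (SE; adjusted p = 0.223 in limma), and that of Rtn4r, the Nogo receptor, was 1.51.

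The other lists gave smaller or more scattered values, with 0 genes past the adjusted threshold. Among nucleases Dnase1l1 had -0.79 and Dnase1 -2.39, where Dnase1 was bright on 2 of the 4 lymph node arrays, at 415 and 485, and at most 30.5 on the others. Maoa, which encodes the enzyme most like Maob and lies beside it on the X chromosome, had -0.23 ± 0.34 (SE; adjusted p = 0.868 in limma), and the vesicle transporter Slc18a2 -0.52. Of the FAT10 and ISG15 conjugation genes, the segregase Vcp had 0.49 and the ISG15 protease Usp18 0.40. In the list of Tceal1 the values were -2.13 ± 0.86 (SE) for Bex1 and -0.49 ± 0.23 (SE) for Bex3, both adapter-like proteins of the same X-linked cluster. Both had overlapping tissues, and Bex1 had 94.6 to 932 in spleen and 443 to 1786 in lymph node. Of the 9 tested genes of that list 1 had an unadjusted p under 0.05 in limma. The list median was -0.28, beside 0.06 for all genes tested. Cebpa, whose protein Trib2 targets, had -1.39 and Foxo3 0.34. Of the polarity genes, Dlg1 had 0.72 and Vangl2 -0.36. In the list of Net1, the exchange factor Plekhg5 had 1.37 and the scaffold Magi1 -1.49. Of the calmodulins, Calml3 and Calml4 were on the array and 0 were bright enough to be tested.

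Genes whose log2 signals followed each of the 10 most closely over the 8 arrays are given as a description. Pearson's r with Dnase1l3 was 0.99 for Sfi1 and 0.98 for Aif1l, and Aif1l was also close to Maob, at 0.98, with Rtkn at 0.98. Nav2 was closest to Zmynd11 and St14, both at 0.97, and Ubd to 4930565N06Rik and Vps13b, both at 0.97. In the genes brighter in lymph node, Net1 was closest to Plat and Itprid2, both at 0.98, and Plat was the gene next below the 10 in the order of p. Calm4 was closest to Smad7 at 0.98 and Iffo2 at 0.96, Olfm1 to AA467197 at 0.96 and Nrg1 at 0.95, and Lrrc1 to Tob2 and Muc3, both at 0.97. Tceal1 was closest to Eif2d at 0.97 and AW112010 at 0.96, and Trib2 to Bbs2 and Tnfsf9, both at 0.98. All these values share the same 8 arrays, and the tissue difference alone makes r high.

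Genes beside the 10 on their chromosomes, looked up after the values of the 10 were seen, were mixed. Abhd6, next to Dnase1l3, had 1.71 ± 0.39 (SE; adjusted p = 0.234 in limma), near the 1.63 of Dnase1l3. Csrp3 and E2f8, near Nav2, had 1.74 ± 0.64 (SE) and 1.26 ± 0.75 (SE). Near Olfm1, Ppp1r26 had -1.03 and Col5a1 0.24. Nbas and Lpin1, near Trib2, had 0.62 and 0.17, against -1.80 for Trib2. Asb13, near Calm4, had -0.30, against -3.34 for Calm4. Gclc near Lrrc1 had 0.99, against -1.79 for Lrrc1, and Morf4l2, next to Tceal1, had 0.00.

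Marker genes of other cell types were read beside these differences. Of the blood endothelial genes 3 of 5 were tested, 3 of 3 were on the spleen side, and the summed signal of the 5 was 528 to 704 on spleen arrays and 201 to 326 on lymph node arrays. The plasmacytoid dendritic cell sum was 3212 to 4461 in spleen and 2485 to 3209 in lymph node, with 3 of 6 genes on the spleen side and a median difference of 0.10. Most of that sum in spleen was Bst2 on 3 of the 4 arrays, at 1463 to 3354 in spleen and 967 to 1644 in lymph node, and Siglech was scattered from 11.1 to 558. Epithelial genes were on the spleen side in 4 of 4 tested, with a sum of 1596 to 4134 in spleen and 1062 to 2855 in lymph node. Their median knockout difference was -0.86, beside -0.06 for all genes tested. Erythroid genes were on the spleen side in 5 of 5, with a sum of 538 to 3543 in spleen and 422 to 642 in lymph node. These sums overlapped, and Slc4a1 had 41.6 on wild-type spleen array B, against 9.63 to 61.4 in lymph node. The neutrophil sum ran from 147 to 8041 in spleen and from 64.4 to 187 in lymph node, where the highest was knockout spleen array A. On that array Dnase1l3, Nav2 and Maob were the lowest of the 4 spleen arrays and Ubd, at 492, the highest. T cell genes were on the lymph node side in 4 of 4 tested, with a sum of 451 to 2027 in spleen and 1049 to 1539 in lymph node. Lymphatic endothelial genes summed to 135 to 293 in spleen and 277 to 383 in lymph node. Keratinocyte genes, read because Calm4 is an epidermal gene, summed to 521 to 1793 in spleen and 796 to 940 in lymph node. Of these 6 genes 2 were tested, with 1 on the spleen side and 1 on the lymph node side. Only 1 of the 6, Flg, was at the floor on all 8 arrays. Neuronal and glial genes, read because of Olfm1 and Nav2, summed to 203 to 1636 in spleen and 580 to 1410 in lymph node. Macrophage genes were on the lymph node side in 7 of 7 tested, 1 of them at an unadjusted p under 0.05 in limma. Their sum was 767 to 20609 in spleen and 1382 to 16875 in lymph node. By genotype it was 767 to 7453 on wild-type and 2099 to 20609 on knockout arrays. The median knockout difference of this list was 2.13, beside -0.06 for all genes tested. Of the sums so far, only those of blood endothelial and, narrowly, plasmacytoid dendritic cell genes did not overlap between the tissues. The sums of 6 further lists overlapped between the tissues, spleen first: red pulp and marginal zone macrophage 3076 to 6959 and 2521 to 3779, platelet 70.9 to 2104 and 183 to 861, high endothelial venule 230 to 618 and 311 to 1275, fibroblastic reticular stroma 174 to 642 and 262 to 1190, B cell 177 to 1864 and 191 to 865, and NK cell 230 to 447 and 277 to 489. So did those of conventional dendritic cells, at 6088 to 8964 and 4788 to 8271, mature dendritic cells, at 34350 to 44861 and 33362 to 52862, type 3 innate lymphoid cells, at 4860 to 7567 and 3482 to 6812, and plasma cells, at 965 to 10884 and 502 to 2034. The spleen stromal sum was 40.1 to 64.0 in spleen and 14.4 to 72.0 in lymph node. Over the 21 marker lists read, 0 genes passed the adjusted threshold between the tissues in limma. An unadjusted p under 0.05 in limma was found for 10.7% of all genes tested. Higher in spleen at that level were 3 of 5 tested erythroid, 2 of 3 blood endothelial and 2 of 4 epithelial genes. Higher in lymph node were 2 of 3 neuronal and glial, 2 of 4 T cell and 2 of 5 type 3 innate lymphoid cell genes. Each other list had at most 1. The part of these cell types in the differences of the 10 genes was not tested.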

How the data were processed

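Labelled total RNA from the 8 samples had been hybridised to Affymetrix mouse expression arrays of 45101 probe sets. The authors deposited intensity values, 1 linear signal per probe set and array, made with MAS5 per the submitters' processing notes, with no version given in the sources used here. The 2% trimmed mean of every deposited array was 250, so each array had been scaled before. Of 45037 probe sets that are not controls, 34945 carried 1 gene symbol, 932 several and 9160 none.

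From these values, every array was moved to 1 common median, because their medians ranged over 0.28 on the log2 scale against a tolerance of 0.2. A floor at the 20th percentile of the values, 9.58, was applied before log2. The probe set with the highest mean stood for a gene, and genes above 59.0 on at least 2 arrays were tested. In R 4.3.3, limma 3.58.1 fitted a mean for each group to all 8 arrays with empirical Bayes moderation (4 residual and 2.96 prior degrees of freedom) and Benjamini-Hochberg adjustment over all 11557 genes at 0.05. Every probe set was also fitted on its own, and the calculation was tested on simulated data. The number of arrays limits the precision.

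The members and the lists were chosen with earlier results of these data known. Named were the 10 genes with all their probe sets, the 3 genes nearest to them by p outside the choice and the gene after the last, for each list of relatives the 2 with the smallest p, and for each gene the 2 with the highest r. All 21 marker lists are given by their sums. The letters were checked as pairs: same-letter deviations from group means correlated by 0.06 to 0.31 between groups, not over 0.1 in all. Within a genotype, Xist and Eif2s3y matched by letter between spleen and lymph node, which may mark a shared source that the labels do not give. The letters were left out of the model, and fits with them as a block are alternatives. Besides the promoter windows, the genes beside the 10 and the order of Calm4 and Net1 came from gene coordinates in a RefSeq gene list. No build is named for the arrays' annotation.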

Additional observations from a re-analysis of the deposited data

How the results depend on the processing

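Over 21 alternatives the tissue difference of each of the 10 genes kept its direction wherever the gene was tested, and 0 of the 10 genes passed the adjusted threshold in any knockout comparison, nor did any relative in spleen against lymph node. The number of all genes called between the tissues, 0 in the fit as reported, was 1 without median scaling, with quantile normalization, with no filter and with the mean of probe sets, 3 with a floor at the 40th percentile and 48 with a trended and robust prior; the cause was not tested. With the letter within genotype as a random replicate block it was 1 (correlation 0.19), and with the letter as a fixed replicate block 0. At an unadjusted p under 0.05, 4 of the 10 genes differed between knockout and wild-type with the random replicate block, and 5 with the fixed one, as with none. For knockout against wild-type, where 0 of all genes passed, 6 passed with that prior, 2 with the higher floor and 2 without knockout spleen array B.

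Some signs turned, and the cause was not tested. Knockout minus wild-type became 0.34 for Tceal1 without a floor, -0.076 for Trib2 with the floor at the 40th percentile and -0.22 for Net1 with Y-linked signal as a covariate, and for Net1 ran from -0.046 to 0.70 when an array was left out. The difference of tissue differences became 0.36 for Calm4 and 1.18 for Lrrc1 with the higher floor, and for Dnase1l3 -0.13 with the mean of probe sets and -0.0056 with the covariate. With an array left out it ran from -0.14 to 0.16 for Dnase1l3, -0.60 to 0.13 for Nav2, -0.57 to 0.059 for Ubd, -0.48 to 0.23 for Olfm1, -0.996 to 0.70 for Calm4 and -1.57 to 0.71 for Maob. Averaging the probe sets brought the tissue difference of Nav2 to 1.26 and of Olfm1 to -1.53, and the higher floor brought Tceal1 to -1.20, Trib2 to -0.81 and Lrrc1 to -0.72. With signal above the common median asked on at least 4 arrays, Tceal1, Trib2 and Lrrc1 were not tested, nor was Trib2 with the mean of probe sets. Readings near the floor limit these values.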
